A study of Mus musculus with 2 samples.

Results

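Expression of 31 genes that mark neuronal identity or neural progenitors was measured in N2A cells with and without the splicing regulator PTBP1. The genes were taken by name from a list, which was chosen with earlier results of the same data known. Of the 31 genes, 17 encode structural or secretory proteins of neurons, 7 are regulators of neuronal lineages, and 7 are genes of dividing progenitors. They stand among 21455 RefSeq genes in the deposited tables. N2A is an established mouse neuroblastoma line. The 2 RNA-seq libraries came from N2A cells transfected with a control shRNA and from N2A cells transfected with an shRNA against Ptbp1 as a single knockdown, both collected after 3 days of culture. The shRNA was delivered by transient lipid transfection, so each library is a pool of transfected and untransfected cells whose shares are not given in the sources used here. With 1 library per group there is no replicate check. No p-value or SD is given, and each ratio compares the libraries rather than the conditions.

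PTBP1 is an RNA-binding protein that binds pyrimidine tracts and represses many neuronal exons in progenitors and in cells outside the nervous system. During neuronal differentiation PTBP1 gives way to its paralog PTBP2, and loss of PTBP1 has been used to push several cell types towards neuronal programmes. Neurons are recognised by their tubulin, microtubule-binding proteins, intermediate filaments and secretory granule proteins. Progenitors are recognised by nestin, vimentin, SOX2 and the HES and ID repressors that hold back differentiation. Neuroblastoma arises from the sympathoadrenal lineage, in which HAND2, GATA2, GATA3 and ISL1 act and in which catecholamines are made by TH, DDC and DBH. The comparison asks whether 3 days of Ptbp1 knockdown shifted the neuronal genes against the progenitor genes.

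The control library held 74382387 junction reads and the knockdown library 58295142. Ptbp1 itself was lower in the knockdown library, with 40293 junction reads in control cells and 10590 in knockdown cells, a ratio of 0.34 after scaling (95% exact interval 0.33 to 0.34). Ptbp2 had 5080 and 9779 junction reads and was 2.46-fold higher (2.37 to 2.54). These intervals, like all that follow, cover counting error only and treat the counted reads as independent. A read that spans more than 1 intron can be counted at each, so intervals on a gene's summed junction reads may be too narrow. The median gene was also slightly higher in the knockdown library, by 0.12 to 0.16 on the log2 scale depending on the measure, and ratios should be read against that shift. Markers of other cell types were low. Of 7 blood, endothelial and epithelial markers only Pecam1 had enough reads for a ratio, at 0.28 on the log2 scale over its exons, and Lum, Twist1, Krt18 and Aqp4 were listed at 0 in both libraries. Levels are given as reads per kilobase and per 1000000 reads of the library (RPKM). The 9 mesenchymal markers summed to 0.30 RPKM in control cells and 0.79 in knockdown cells, and the 13 glial and Schwann cell markers to 2.02 and 2.32. The part of these traces in any result below was not tested.

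Each gene was measured in 3 ways from the same reads, and several statements depend on which is used. The first sums depth times length, as estimated reads, over the RefSeq isoforms of a gene. RefSeq levels in RPKM are summed depth per base instead. Levels and ratios can therefore differ where isoform lengths or shares differ between the libraries. The second adds isoforms that the assembler built itself, and keeps what falls on annotated exons. The third counts reads that span the gene's annotated introns. For each intron it takes the highest count over the exon trios of the splicing program SpliceTrap, in each library separately. It does not depend on how the assembler divided reads among isoforms, but the trio with the highest count can differ between libraries. Each was scaled to its own library total, and a ratio was formed for genes with a mean of at least 50 reads over the libraries.

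The control N2A library expressed a strong but incomplete neuronal set. By depth per base of the RefSeq isoforms, 10 of the 31 genes lay in the top 5% of all genes and 8 of them in the top 1%. Prph, which encodes the intermediate filament peripherin of peripheral neurons, ranked 21 of 21455 with 771 RPKM. Uchl1, a deubiquitinase abundant in neurons, ranked 33 at 611. The neuronal tubulin gene Tubb3 ranked 101 at 362, the granule protein gene Chgb 128 at 309, the microtubule-associated protein gene Map1b 159 at 268, and the stathmin gene Stmn3 174 at 257. The growth cone protein gene Gap43 ranked 720 at 101, the granule protein gene Chga 741 at 98.7, and Stmn2 1075 at 76.0. Ranks moved with the measure for some of them, and by gene FPKM Map1b ranked 373 and Chga 1264. Below these were the neuronal enolase gene Eno2 at 21.7 and the doublecortin-like kinase gene Dclk1 at 18.1.

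Other neuronal genes were close to absent from the same cells. Dcx, which encodes doublecortin of migrating neurons, was estimated at 0.0087 RPKM and had no junction read in either library on 9 annotated junctions. A count of 0 allows up to 3 reads, or 0.040 per 1000000 junction reads in control cells and 0.051 in knockdown cells. Rtn1 likewise had no junction read on 9 junctions. The neurofilament genes Nefl and Nefm had 1 junction read each in the control library, against 3 and 2 in the knockdown library. Other intermediate filament genes were abundant, among them Prph and Vim, and the heavy neurofilament gene Nefh, which is not among the 31, had 1833 and 1842 junction reads. Ina, the gene of alpha-internexin, was listed at 0 by RefSeq isoforms in the control library because all of its reads there were given to an assembled isoform. Over annotated exons it reached 42.8 RPKM and ranked 1382.

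Regulators known from the sympathoadrenal lineage were present. Hand2 ranked 144 at 284 RPKM and Gata2 ranked 1337 at 64.8, followed by Isl1 at 20.8 and Sox11 at 20.3. Gata3 was low at 3.61. Neurod1, a driver of central neuron differentiation, was listed at 0 in the control library and at an estimated 4.5 reads in the knockdown library. Dll3, an inhibitory Notch ligand, had 8 junction reads in each library.

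Among the progenitor genes, Vim was the most abundant member of all, ranking 19 at 836 RPKM. It encodes vimentin, an intermediate filament of progenitors and of many cultured lines. Id2 ranked 1172 at 71.7 and Id1 2653 at 36.1 (1010 over annotated exons), both encoding inhibitors of basic helix-loop-helix factors. The oncogene Mycn stood at 15.6, and the progenitor filament gene Nes at 1.15. Sox2 was listed at 0 in both libraries, and the Notch effector Hes1 had 1 and 2 junction reads. When the 29 members with a value above 0 were ordered by gene FPKM in the control library, the deposited bounds overlapped in 11 of 28 neighbouring pairs, among them Vim with Prph and Prph with Uchl1.

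**Figure D1:**
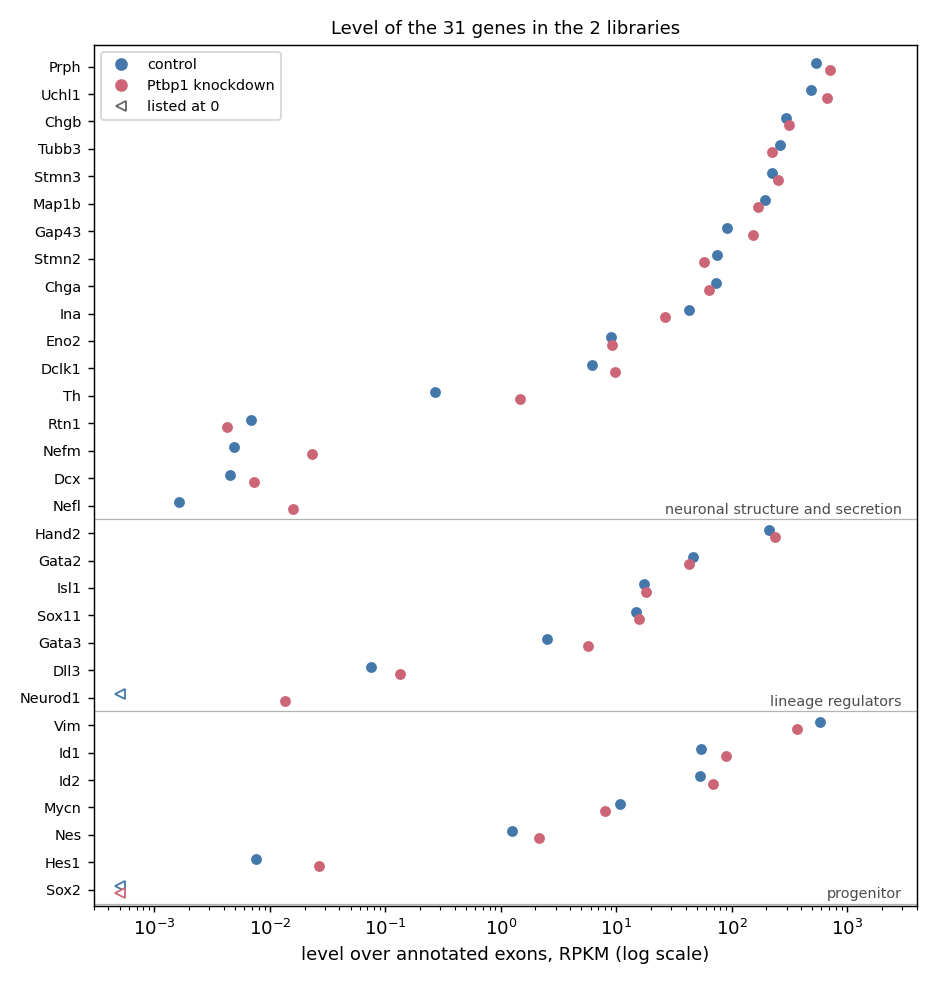
Level of each of the 31 genes over its annotated exons, all isoforms included, in RPKM on a log axis, with the control library in blue, the Ptbp1 knockdown library in red and values listed at 0 as open triangles. Th moves from 0.27 to 1.47 and Vim from 585 to 370.

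Of the 31 members, 8 were under the minimum of 50 reads by RefSeq isoforms, namely Dcx, Nefl, Nefm, Rtn1, Neurod1, Dll3, Sox2 and Hes1. Ina had no ratio because of its control value of 0. Of the remaining 22, 6 were at least 1.5-fold higher in the knockdown library, beside 21.8% of all genes, and 2 were at least 1.5-fold lower, beside 9.53% of all genes. Over annotated exons with all isoforms, 6 of 23 were higher (18% of all genes) and 2 were lower (3.34% of all genes). By junction reads, 4 of 19 were higher (16.4% of all genes) and 1 was lower (1.38% of all genes). At the shares of all genes, the same numbers of members would hold 4.80, 4.14 and 3.12 higher genes and 2.10, 0.77 and 0.26 lower genes, so each count was within 2 genes of its background. The median log2 ratio of the members was 0.15 by RefSeq isoforms, 0.08 over exons and 0.21 by junctions, against 0.12, 0.13 and 0.16 for all genes.

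All 3 measures gave a ratio for 18 members. By every measure 3 of them, Th, Gap43 and Dclk1, were at least 1.5-fold higher and 1, Vim, was at least 1.5-fold lower. Among the 9274 genes with all 3 ratios, 7.4% were higher and 0.841% were lower by every measure. In a bulk library, fewer cells expressing a gene and less RNA per cell cannot be told apart.

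**Figure D2:**
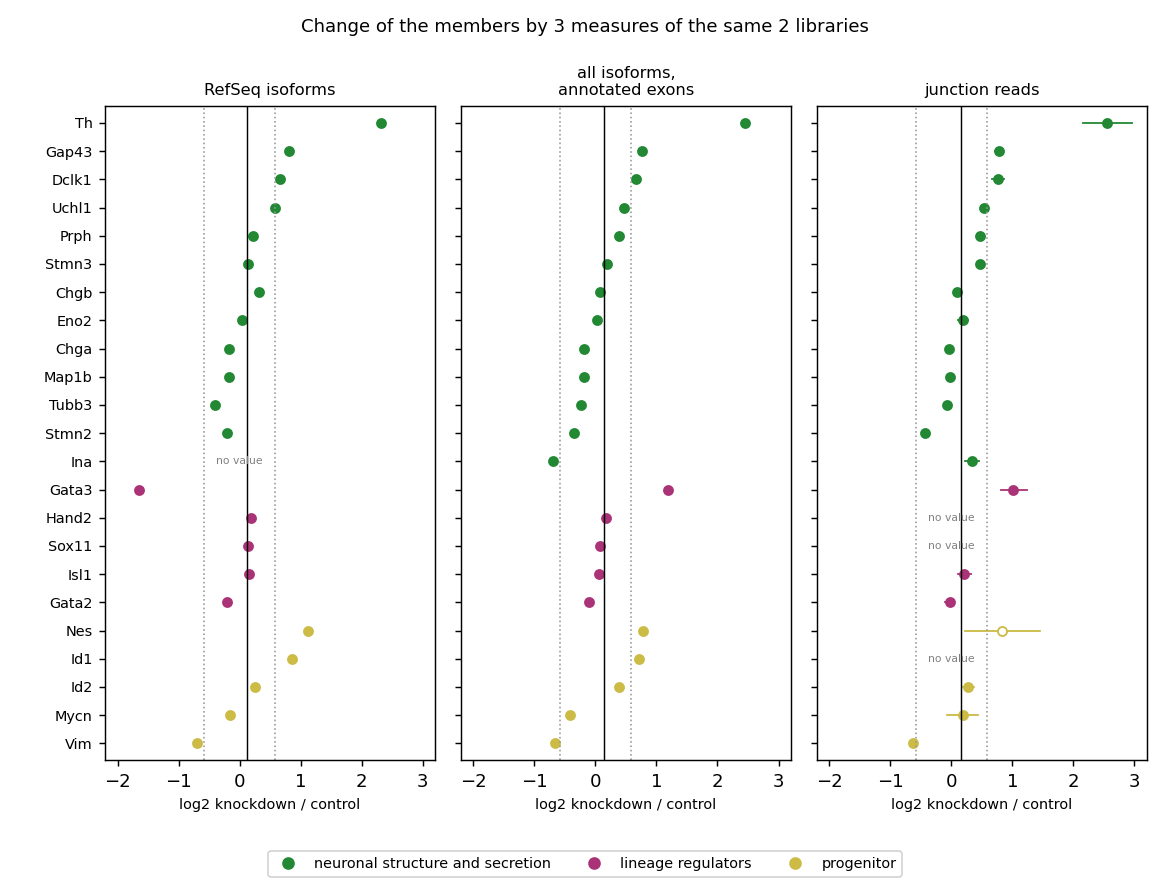
Log2 ratio of the knockdown over the control library for the 23 members with enough reads, by RefSeq isoforms, by all isoforms over annotated exons and by junction reads, with 95% exact counting intervals on the junction ratios. The dotted lines mark 1.5-fold, the solid line is the median of all genes, and an open point has too few reads. Th, Gap43 and Dclk1 lie right of 1.5-fold and Vim left of it in every panel, whereas Gata3 changes side.

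Th had the largest ratio of all members. It encodes tyrosine hydroxylase, the rate-limiting enzyme of catecholamine synthesis, and lies on the minus strand of mm9. Its GENCODE span is chr7:150078657-150117033. That span reaches further upstream than the RefSeq transcript, whose most upstream intron ends at 150085776. It had 63 junction reads in control cells and 289 in knockdown cells. Over its exons its level was 0.27 RPKM in control cells and 1.47 in knockdown cells. The ratio was 5.85-fold by junction reads (95% exact interval 4.44 to 7.81), 5.48-fold over exons and 4.96-fold by RefSeq isoforms. All 12 of its annotated junctions had more scaled reads in the knockdown library, and the 11 with reads in both libraries ranged from 3.40-fold to 9.44-fold. Even so, the transcript remained low, with a control rank of 10424 of 21455. The promoter of Th is shown because the gene had the largest ratio and because it holds the cyclic AMP response element TGACGTCA, through which cyclic AMP signalling is known to act on this gene. The sequence is the RefSeq promoter of the GRCm38.p6 build, chr7:142899946-142900245 on the minus strand, with the element in capitals. It runs from 250 bases before to 50 bases after the start of the RefSeq transcript.
Th promoter: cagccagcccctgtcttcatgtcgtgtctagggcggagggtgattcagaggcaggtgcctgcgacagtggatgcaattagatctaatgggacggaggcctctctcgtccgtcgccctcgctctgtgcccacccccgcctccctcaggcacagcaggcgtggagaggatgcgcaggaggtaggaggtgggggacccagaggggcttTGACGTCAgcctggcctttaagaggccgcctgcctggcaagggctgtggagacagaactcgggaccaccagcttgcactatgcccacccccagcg
The element is the same on both strands and begins 45 bases before the start, and 1.79% of the 32851 promoters in the table hold these letters. The letters TGACTCA and GATAA, searched on both strands, were not found in this window, and 5.2% and 25.4% of all promoters hold them. A match in letters is a description of the sequence and not evidence of binding in these cells.

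Of the catecholamine synthesis and storage genes outside the 31, Dbh, Ddc and Slc18a2 were at least 1.5-fold higher by junction reads, as were 16.4% of all genes, and Slc18a1 was not. Dbh, which encodes dopamine beta-hydroxylase, had 3729 junction reads in control cells and 12816 in knockdown cells, a 4.39-fold ratio (95% exact interval 4.23 to 4.55), with all 11 junctions higher. Ddc, the gene of aromatic amino acid decarboxylase, had 635 and 1229 reads and was 2.47-fold higher (2.24 to 2.72). Slc18a2, which encodes the vesicular monoamine transporter, had 106 and 259 reads and was 3.12-fold higher (2.48 to 3.95), although its isoforms were listed at 0 in both libraries. Ddc and Slc18a2 were named after their values were seen. Slc18a1, the related transporter of endocrine cells, had 239 and 204 reads, a log2 ratio of 0.12 (-0.15 to 0.40). None of the 3 sets of letters searched above was found in the RefSeq promoter of Dbh or in both RefSeq promoters of Ddc.

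Gap43, at chr16:42248555-42340764 on the minus strand of mm9, was at least 1.5-fold higher by all 3 measures. Its protein, GAP-43, is concentrated in growing axons. It had 3121 junction reads in control cells and 4222 in knockdown cells. Its level over exons was 90.4 RPKM in control cells and 154 in knockdown cells. The ratio was 1.73-fold by junction reads (95% exact interval 1.65 to 1.81), 1.70-fold over exons and 1.76-fold by RefSeq isoforms. Its 2 junctions gave 1.72-fold and 1.73-fold.

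Dclk1, at chr3:55046448-55342986 on the plus strand of mm9, encodes a kinase with doublecortin domains that binds microtubules. It had 1492 junction reads in control cells and 1996 in knockdown cells. The ratio was 1.71-fold by junction reads (95% exact interval 1.60 to 1.83), 1.58-fold over exons and 1.59-fold by RefSeq isoforms. Relative to the median gene its log2 ratio was 0.61 by junction reads, 0.53 over exons and 0.54 by RefSeq isoforms, and only the first of these is past 1.5-fold. Of its 21 junctions 20 were higher and none was lower. Dclk1 has an internal start, from which shorter transcripts begin. The 4 junctions upstream of that start had 170 and 233 reads, a 1.75-fold ratio (1.43 to 2.14), and the 16 downstream had 1236 and 1622, a 1.67-fold ratio (1.55 to 1.80). The intervals overlap, but longer and shorter transcripts share downstream junctions, so this comparison cannot separate them. The junction that spans the internal start had 86 reads in control cells and 141 in knockdown cells. The junction that leaves the first exon after that start had 95 and 147. Among its 7 RefSeq isoforms, NM_001111052 was listed at 0 in the control library and took 6.14% of the gene's depth in the knockdown library. The share of NM_001195540, which begins at the internal start, went from 33.1% to 22.4%. Its own level was 5.97 RPKM in control cells and 6.34 in knockdown cells, with overlapping FPKM bounds. Such shares depend on how reads were divided among isoforms. Isoforms NM_001195539 and NM_019978 were listed at 0 in both libraries.

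Vim, at chr2:13495554-13504453 on the plus strand of mm9, was at least 1.5-fold lower by all 3 measures. It had 123476 junction reads in control cells and 62825 in knockdown cells. Its level over exons was 585 RPKM in control cells and 370 in knockdown cells. The ratio was 0.65 by junction reads (95% exact interval 0.64 to 0.66), 0.63 over exons and 0.62 by RefSeq isoforms. All 8 junctions were lower, with ratios of 0.58 to 0.74.

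**Figure D3:**
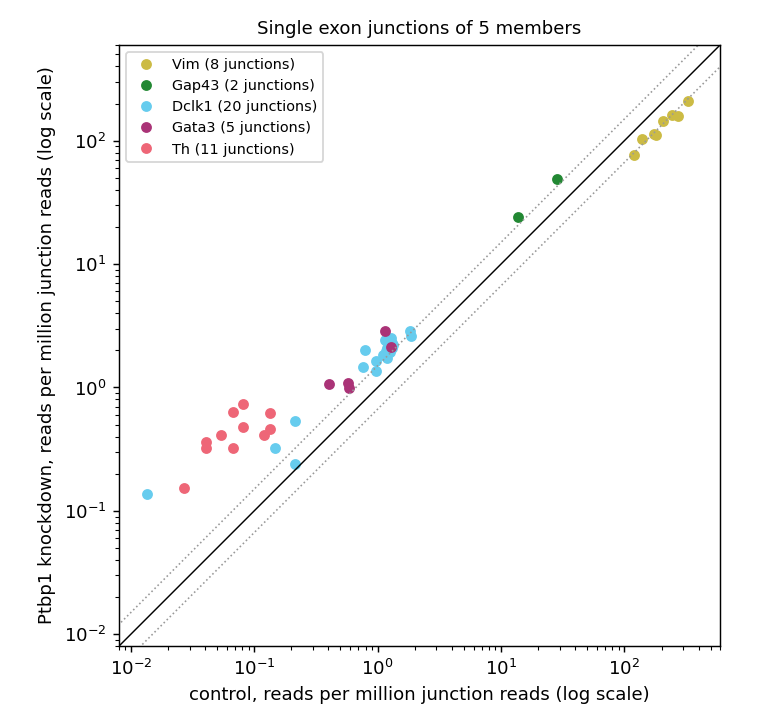
Scaled reads on single annotated junctions of Vim, Gap43, Dclk1, Gata3 and Th in the control library (x axis) and the knockdown library (y axis), both in reads per 1000000 junction reads on log axes, for junctions with reads in both libraries. The solid line is equality and the dotted lines are 1.5-fold, and all junctions of Vim lie below equality while those of the other 4 genes lie above it.

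Nes and Id1, both progenitor genes, were higher, so the progenitor group did not move as a block with Vim. Nes had 40 junction reads in control cells and 56 in knockdown cells, too few for the minimum, and a ratio of 1.79-fold (95% exact interval 1.17 to 2.75). Over its exons Nes was at 1.26 and 2.16 RPKM, a 1.71-fold ratio, and RefSeq isoforms gave 2.18-fold. Id1 was at 54.2 and 88.7 over its exons, a 1.64-fold ratio, and 1.81-fold by RefSeq isoforms. It has no junction in the table. Its RefSeq isoform had been extended by assembly to 2062 bases in the control library, against 911 in the knockdown library. The RefSeq depth per base of Id1, which is not multiplied by length, went from 36.1 to 148 RPKM. In the control library alone its locus was merged with those of H13 and Mcts2, and 60.4% of its exonic reads there were on assembled isoforms, against 4.16% in the knockdown library. The FPKM of that locus gave a log2 ratio of -0.25. Id2 had 1986 and 1884 junction reads and a ratio of 1.21-fold (1.14 to 1.29). Mycn had 269 and 240 junction reads and a ratio of 1.14-fold (0.95 to 1.36). Its ratio was 0.75 over exons and 0.90 by RefSeq isoforms, and its log2 ratio by FPKM was -0.74, so its direction changed with the measure.

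Gata3, at chr2:9778705-9811661 on the minus strand of mm9, had opposite ratios by different measures. It encodes a zinc-finger factor needed for sympathetic neurons. By RefSeq isoforms it went from 3.61 to 1.41 RPKM, with a log2 ratio of -1.65. Over exons with all isoforms it went from 2.50 to 5.69, a log2 ratio of 1.19. By junction reads it went from 298 to 473, a log2 ratio of 1.02 (95% exact interval 0.81 to 1.23), and all 5 junctions were higher. In the knockdown library 85.3% of its exonic reads were on assembled isoforms, against 14% in the control library. The lower RefSeq value therefore rests on how reads were divided among isoforms. The other regulators were close to the median gene. Gata2 had 3507 and 2693 junction reads, a log2 ratio of -0.03 (-0.10 to 0.04), and Isl1 had 1510 and 1373, a log2 ratio of 0.21 (0.11 to 0.32). Hand2 and Sox11, which have no junction in the table, had log2 ratios of 0.18 and 0.07 over exons.

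The call for Ina also depended on the measure. It had 1202 junction reads in control cells and 1187 in knockdown cells, a ratio of 1.26-fold (95% exact interval 1.16 to 1.37). Over exons it went from 42.8 to 26.3 RPKM, a log2 ratio of -0.70, and it is at 0 in the control library by RefSeq isoforms. Uchl1 lay at the threshold. It had 66309 and 75287 junction reads, a ratio of 1.45-fold (1.43 to 1.46), and was 1.502-fold by RefSeq isoforms and 1.39-fold over exons.

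Most structural and secretory genes of neurons stayed within 1.5-fold, on both sides of the median gene. Prph had 93871 junction reads in control cells and 102095 in knockdown cells, a ratio of 1.39-fold (95% exact interval 1.38 to 1.40), and its main RefSeq isoform NM_001163589 held 87.5% and 81.9% of the depth. Stmn3 had 17864 and 19381 reads and a ratio of 1.38-fold (1.36 to 1.41). Its paralog Stmn2 moved the other way, with 11649 and 6794 reads, a ratio of 0.74 (0.72 to 0.77) and all 4 junctions lower. Tubb3 had 16260 and 12085 reads and a ratio of 0.95 (0.93 to 0.97). In the control library the Tubb3 locus was merged with those of Mc1r and Tcf25, and its FPKM gave a log2 ratio of -1.07, against -0.23 over its own exons. Map1b, Chga and Chgb had junction ratios of 0.98, 0.98 and 1.06. The loci of Chgb and Eno2 were shared with other genes in both libraries, so their FPKM covers more than the gene. Eno2 had 2626 and 2341 junction reads and a ratio of 1.14-fold (1.08 to 1.20).

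The medians of the neuronal and progenitor genes did not separate in a stable direction. By RefSeq isoforms the median log2 ratio was 0.18 for 12 neuronal genes and 0.25 for 5 progenitor genes, a difference of -0.07. Over exons it was 0.08 for 13 and 0.38 for 5, a difference of -0.30. By junction reads it was 0.33 for 13 and 0.19 for 3, a difference of 0.15. The sign of the difference thus changed with the measure, and the progenitor median rested on at most 5 genes. The neuronal genes with the larger ratios were Th, Gap43 and Dclk1, while Tubb3, Map1b and Stmn2 were on the other side of the median gene by every measure.

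**Figure D4:**
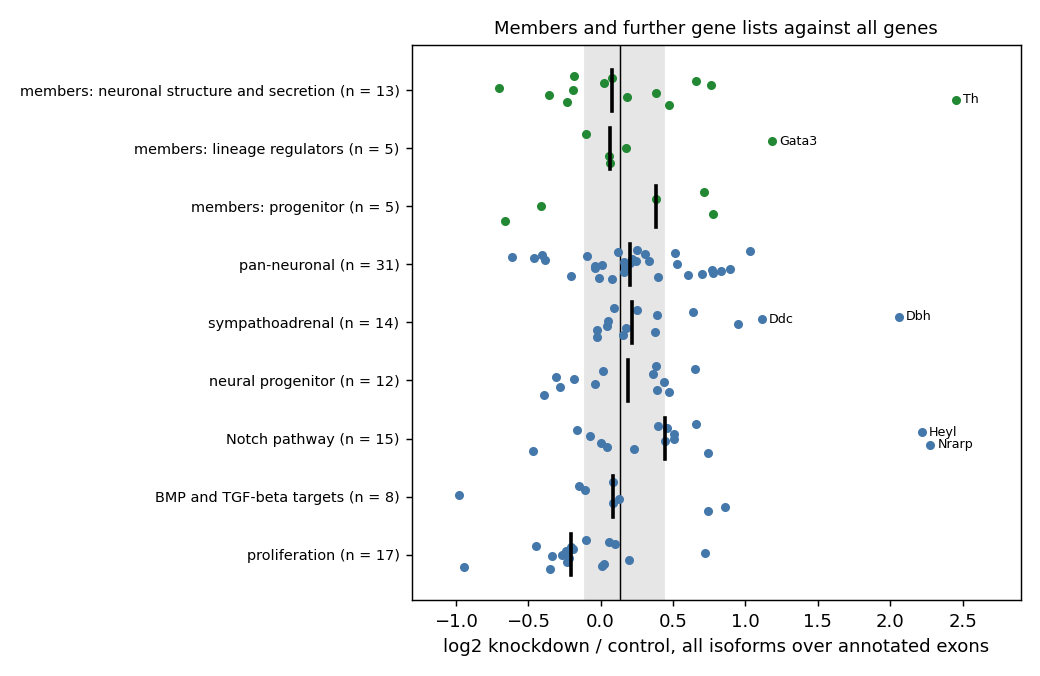
Log2 ratio over annotated exons, all isoforms, of each gene with enough reads in the 3 groups of members (green) and in 6 further lists (blue), with a black bar at each list's median. The vertical line and grey band are the median and the middle 50% of all genes, and only single genes such as Th, Gata3, Dbh, Ddc, Heyl and Nrarp stand far to the right.

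Further gene lists also held ratios of both signs over annotated exons. Of all genes, 18% were higher and 3.34% lower by this measure. The lists were chosen with earlier results of these data known, so counts and medians set beside those of all genes are descriptions only. Of 31 pan-neuronal genes with enough reads, 7 were at least 1.5-fold higher and 1 was lower, with a median log2 ratio of 0.21. Dpysl3 and Vgf were the highest in the control library, at 317 and 312 RPKM, with log2 ratios of -0.46 and 0.08. Crmp1, an axon guidance mediator, had the lowest ratio at -0.61. Of 14 sympathoadrenal genes, 4 were higher, among them Dbh, Ddc and Chrna3, and none was lower, with a median of 0.21. By junction reads 5 of 12 were higher, Slc18a2 included, beside 16.4% of all genes, with a median of 0.49 against 0.16 for all genes. Ret, the receptor for glial cell line-derived ligands, and the granule protein gene Scg2 were the most abundant and had log2 ratios of -0.02 and 0.38. The lowest ratio was that of Tfap2b at -0.02.

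The progenitor and signalling lists likewise held ratios of both signs, but their medians differed. Of 12 neural progenitor genes, 1 was higher and none was lower, with a median log2 ratio of 0.19. Hes5, a Notch effector, had the largest ratio at 0.65 on 11 and 15 junction reads and Sox9 the lowest at -0.39, and the abundant Myc and Ccnd1 were at -0.28 and 0.39. By junction reads Myc was at 0.35 (95% exact interval 0.28 to 0.41), so its sign changed with the measure. Of 15 Notch pathway genes, 4 were higher and none was lower, with a median of 0.44 against 0.13 for all genes. By junction reads 4 of 12 were higher, beside 16.4% of all genes, and none was lower. The junction median of this list was 0.53 against 0.16 for all genes. The largest was Nrarp at 2.28, a feedback inhibitor of the pathway, which went from 0.17 to 0.81 RPKM, and the lowest was Rbpj, the pathway's DNA-binding factor, at -0.47. Hey1 and Rfng were the most abundant, at 0.46 and 0.74. Of 8 BMP and TGF-beta targets and receptors, 2 were higher and 1 was lower, with the largest ratio in Smad7 at 0.86, and Bmpr1a and Bmpr2 at -0.15 and -0.11. Of 17 proliferation genes, 1 was higher and 1 was lower, and their median of -0.20 was below the 0.13 of all genes. Ccne1 was at 0.72 and Plk1 at -0.94, and the abundant Top2a and Mcm2 were at -0.35 and -0.34. By junction reads the proliferation median was -0.11, and Plk1 was at -0.25.

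Splicing could be followed at 2 cassette-class exons of the members. They are shown because they are the members' only exons of that class with at least 20 reads in each library and an inclusion (PSI) between 5 and 95 in at least 1 library. Each is given on mm9, with the 60 bases of upstream intron in lower case and the exon in capitals.
Dclk1 exon, 74 bases, chr3:55325772-55325845, plus strand: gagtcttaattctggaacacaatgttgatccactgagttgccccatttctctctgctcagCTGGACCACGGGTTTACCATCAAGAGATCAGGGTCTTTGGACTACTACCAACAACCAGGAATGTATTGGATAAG
Eno2 exon, 134 bases, chr6:124716549-124716682, minus strand: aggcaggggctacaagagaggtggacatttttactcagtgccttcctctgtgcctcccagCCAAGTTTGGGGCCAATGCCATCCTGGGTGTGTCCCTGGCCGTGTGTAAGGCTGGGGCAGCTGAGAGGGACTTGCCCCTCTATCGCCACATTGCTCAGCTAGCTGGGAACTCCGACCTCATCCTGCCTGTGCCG
Both are flanked by AG upstream and GT downstream. SpliceTrap put the inclusion of the Dclk1 exon at a PSI of 9.3 for control cells and 16.6 for knockdown cells. Its inclusion junctions had 9 and 1 reads and its skipping junction 54 in control cells, and the same junctions had 19, 8 and 83 reads after knockdown. Inclusion from these reads was 8.47% (95% Wilson interval 3.67 to 18.4) and 14% (8.89 to 23), a difference not detectable at this depth. The Eno2 exon was at a PSI of 87.4 for control cells and 80.7 for knockdown cells. Its inclusion junctions had 227 and 109 reads and its skipping junction 20 in control cells, and the same junctions had 204, 79 and 30 reads after knockdown. Inclusion from these reads was 89.4% (84.1 to 93.0) and 82.5% (76.2 to 87.5), and the intervals overlap. For both exons the counts come from a single SpliceTrap trio of exons. The annotated intron directly upstream of the Eno2 exon had 238 and 173 reads as its highest counts over trios. The percentages therefore hold for the chosen trio only.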

How the data were processed

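Strand-specific libraries of total RNA from 2 N2A samples were sequenced as paired reads of 100 bases. Per the labels, the authors aligned reads to mm9 with TopHat and assembled transcripts with Cufflinks beside RefSeq, for each library separately. The authors deposited gene FPKM with bounds, on an unusually large scale, so only ratios were used. They also deposited isoform coverage as depth per base, a signal not scaled to the library, and a transcript file whose score column was not used beyond exon positions. From SpliceTrap the authors deposited inclusion ratios as a fraction, junction read counts without normalization, and coverage.

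Isoform names were matched to RefSeq symbols, and suffixes for extended or repeated transcripts were dropped. Reads were estimated as coverage times length divided by 100. The first measure was the one planned. It proved to depend on assembled isoforms, so all isoforms over GENCODE exons and junction reads, both planned as well, are printed beside it, a choice made after values were seen. FPKM ratios used a pseudocount of 1 or 0.1, both negligible on the deposited scale before division by the library median. Junction ratios have exact 95% intervals. Members and lists were chosen with earlier results of these data known. From each list the 2 genes highest in the control library and those with the largest and smallest ratio are named, except for a few genes whose results are left out. Promoters came from RefSeq (GRCm38.p6), which held 25 of the 31 members. Scripts ran in Python 3.11.15 with pandas 2.3.3, NumPy 2.4.6, matplotlib 3.10.9 and SciPy 1.17.1.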

Additional observations from a re-analysis of the deposited data

How the results depend on the processing

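No paired analysis was possible because each group has 1 library. By RefSeq isoforms 6 members were higher and 2 lower at 1.5-fold, and the medians of neuronal and progenitor members differed by -0.07. Gene FPKM gave 2 higher and 4 lower and a difference of 0.11. A pseudocount of 1 or 0.1 is negligible on the deposited scale, so these settings had to give the same values. FPKM divided by the library median gave 0 higher and a difference of 0.10. In that setting the pseudocount of 1 equals the level of the median gene and draws low genes towards 0. The log2 ratio of Th was 2.31 by RefSeq isoforms, 2.29 by undivided FPKM and 0.13 by FPKM over the median. In the same order Nes was at 1.12, 0.47 and 0.052, Dclk1 at 0.67, 0.42 and 0.25, and Gap43 at 0.81, 0.53 and 0.58. Gap43 was thus no lower over the median than by undivided FPKM. Junction reads gave 1 lower and a difference of 0.15, also with the median of all genes set to 0. All isoforms over exons gave a difference of -0.30 with either scaling and -0.25 without Ina. Without a filter 10 members were higher and the difference was -0.28, and at 2-fold 2 were higher and 1 lower. Without members in shared loci the difference was 0.17, and without Vim and Mycn it was -0.67.

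Of the 8 members past 1.5-fold by RefSeq isoforms, 3 changed sign under another measure. Gata3 (-1.65 as reported) was 0.95 by FPKM, 0.23 by FPKM over the median, 1.02 by junctions and 1.19 over exons. With the median of all genes set to 0, junctions gave 0.86 and exons 1.05. Id1 was -0.25 by FPKM and -0.12 by FPKM over the median. Uchl1 was -0.017 by FPKM. The causes were not tested beyond the shares of assembled isoforms given above. The settings for exons and junctions with the median of all genes set to 0, and those without Th or without Ina, were chosen after seeing the data. The top 5% of genes held 10 members by RefSeq isoforms, 11 by FPKM and 12 over exons. With 1 library per group the spread between cultures is unknown, and genes under 50 reads support no ratio.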

Other observations

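The dependence of Gata3 on the measure was not limited to this gene. Among the 9274 genes with a ratio by all 3 measures, 928 were at least 1.5-fold lower by RefSeq isoforms. Of these, 133 were also at least 1.5-fold lower over annotated exons and 88 (9.48%) by junction reads, while 373 (40.2%) had a higher value in the knockdown library by junction reads. Of the 1766 genes at least 1.5-fold higher by RefSeq isoforms, 861 (48.8%) were so by junction reads and 199 (11.3%) had a lower value. The log2 ratio over exons differed from that by junctions by a median of 0.09, and the RefSeq isoform ratio by a median of 0.20. The 3 measures come from the same reads and are not independent.

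Some markers of other cell types, all at low levels, were higher in the knockdown library. Pdgfrb had 60 junction reads in control cells and 144 in knockdown cells, Col1a1 had 28 and 74, and Pdgfra had 208 and 371. Acta2 had 8 and 0 junction reads. Acta2 is named here after its values were seen.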
